A study of Mus musculus with 10 samples.

Results

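This comparison asked what silencing microRNA-409-5p did to gene expression in cultured mouse hippocampal neurons. It takes 6 of the 10 libraries of the series, chosen by their titles. In 4 of them the neurons had received an antisense inhibitor of the microRNA (anti-miR-409-5p, replicates 1 to 4), and in 2 scramble RNA (control, replicates 1 and 2). Both agents were given at day 10 in vitro in lipid nanoparticles, and polyadenylated RNA was taken after 48 h, so nanoparticles were common to both groups. The other 4 libraries received an inhibitor of microRNA-501-3p and served to estimate the spread and as a second reference. The labels do not state whether replicate libraries were made from different cultures, so every p-value below measures the spread between these libraries, which may be technical. The labels give no mouse strain, age or sex. Of 48709 genes counted, 16884 passed the filter on low counts and were tested, and 16839 of these could also be tested after each library's trend on transcript GC content and length had been removed.

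MicroRNAs guide Argonaute proteins to messenger RNAs, mostly through pairing of their seed, the bases just after the 5′ end, with sites in 3′ UTRs, and the bound messages are translated less and decay faster. An anti-miR pairs with the mature microRNA and blocks it, so that its targets can rise. MicroRNA-409 comes from the large microRNA cluster of the imprinted Dlk1-Dio3 region, which is active in neurons. The precursor lies on chromosome 12 of GRCm38.p6. It is shown as RefSeq gives it, with the mature 5p arm in capitals, followed by the mature strand that was silenced, with its seed (bases 2 to 8) in capitals, since these bases define the sites searched for.

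miR-409 hairpin, chr12:109743158-109743236, plus strand: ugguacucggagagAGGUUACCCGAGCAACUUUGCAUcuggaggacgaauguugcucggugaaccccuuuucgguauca
miR-409-5p, chr12:109743172-109743194, plus strand: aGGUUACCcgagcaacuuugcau

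Of 1738 mature mouse microRNAs in the RefSeq table, 1 carries this seed, miR-409-5p itself. The sites searched for on the message strand were GGTAACC, which pairs with the whole seed, and the same site moved by 1 base so that it ends opposite base 1, which reads GTAACCA. Both together make the 8-base site GGTAACCA. Among genes with the 8-base site called higher in both fits described below, 6 are shown, those that rose most with the trend removed. Each is given with 12 bases before and 4 after the site, in the sense of the message. Sequences and positions are from GRCm38 (mm10) and the GENCODE M21 gene models. The capitals mark the site, which in each case lies in the 3′ UTR, and the coordinates are those of the site.

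Marcks, chr10:37133797-37133804, minus strand: aaagtcaaacctGGTAACCAaagg
Ccdc71l, chr12:32381830-32381837, plus strand: ccacaatggacaGGTAACCAgtta
Ugcg, chr4:59221183-59221190, plus strand: ttggtttttaatGGTAACCAtgaa
Yes1, chr5:32685462-32685469, plus strand: ttgaataatgaaGGTAACCAgaaa
Cpsf6, chr10:117349304-117349311, minus strand: atctgcataaatGGTAACCAgtag
Kcnd3, chr3:105673271-105673278, plus strand: gctagctggcatGGTAACCAccat

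The libraries of the comparison held 22254788 to 32096808 gene counts, and the groups differed in composition before any single gene was tested. The slope of log2 counts on GC content, per 10 points of GC and as deviation from the mean over libraries, was 0.255 and 0.192 in control and 0.0382, -0.00886, -0.0893 and -0.0944 in the treated replicates 1 to 4. All 4 treated libraries lay below both controls (difference -0.262, two-sided exact permutation p = 0.0667, the smallest that 15 splits allow). Mitochondrially encoded transcripts took 2.59% and 2.78% of counts in control and 3.40%, 3.64%, 3.67% and 3.804% in the treated libraries, again without overlap (exact permutation p = 0.0667). Neither difference from control was particular to anti-miR-409-5p. The anti-miR-501-3p replicates 1 to 4 had GC slopes of 0.00726, -0.0843, -0.0925 and -0.123 and mitochondrial shares of 3.33%, 3.69%, 3.81% and 3.95%. Mir409 had 0 counts in every library. At these depths this sets an upper limit of 0.0935 to 0.135 CPM (counts scaled to library size), depending on the library, for counting error only. Mature microRNAs carry no poly(A) tail, so these libraries do not show how far miR-409-5p was silenced.

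On raw counts, 4696 of 16884 genes changed at an adjusted p under 0.05 (edgeR's quasi-likelihood test with Benjamini-Hochberg adjustment), which is 27.8% of those tested. Of these, 2634 rose (15.6%) and 2062 fell (12.2%). The changes were small: the median size among called genes was 0.25 on the log2 scale. They also followed GC content, with a Spearman's rho between log2 fold change and GC of -0.693 across tested genes, which are not independent replicates. Among 1157 genes whose longest transcript had at most 40% GC, 58.8% were called higher and 0.259% lower, whereas among 730 genes above 60% GC, 0.137% were called higher and 47.8% lower. With scaling by total counts in place of TMM the split was 2193 higher and 3209 lower, and with upper-quartile scaling 2233 higher and 3074 lower. These scalings moved the median log2 fold change of all genes from -0.012 to -0.056 and -0.051.

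**Figure D1:**
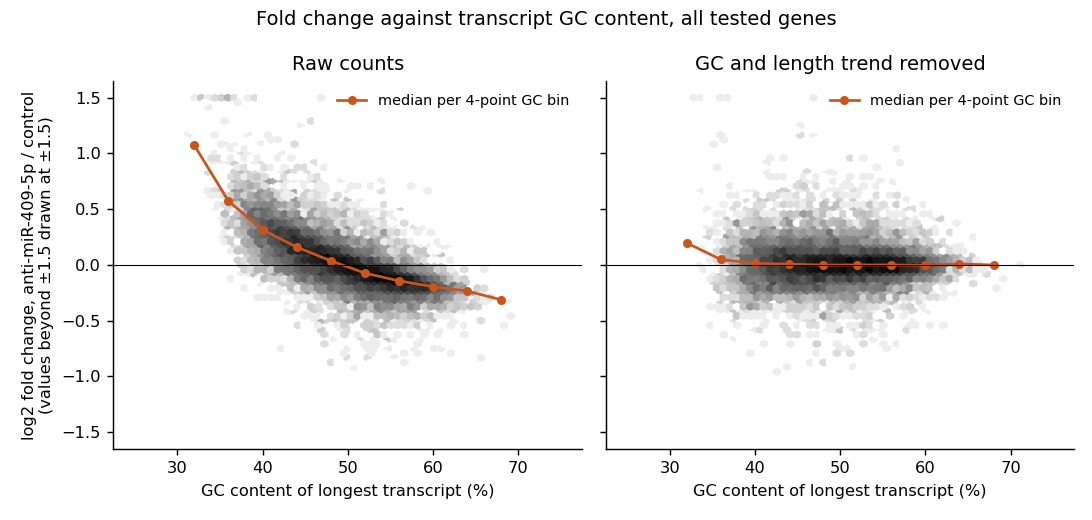
Log2 fold change of anti-miR-409-5p against control (y axis) against GC content of the longest transcript in percent (x axis), 1 panel per fit; shading gives the number of tested genes on a log scale and the line the median per GC bin. On raw counts the medians descend from left to right (rho -0.693), and with the trend removed they lie close to 0 (rho -0.030).

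After each library's trend on GC content and length had been removed, 1253 genes changed (7.44% of 16839 tested), 670 higher (3.98%) and 583 lower (3.46%). The rho with GC was then -0.030. In both fits and in the same direction, 733 genes were called (4.35%), 572 of them higher (3.4%) and 161 lower (0.956%). They make up 21.7% of the rises and 7.81% of the falls called on raw counts. The demand for both calls acts unevenly over GC content. Among genes of at most 40% GC, 107 were called higher and 144 lower with the trend removed, but 107 and 3 in both fits, and among genes of over 55% and up to 60% GC, 35 and 13 became 4 and 13. The balance of rises and falls in both fits therefore follows in part from the trend in raw counts, and counts with the trend removed alone are given beside it. The 572 higher genes had a median log2 fold change of 0.42 on raw counts and 0.22 with the trend removed, and 537 were protein coding. The 161 lower genes had medians of -0.23 and -0.22, and 152 were protein coding. In CPM, all 4 treated libraries stood on one side of both controls for every one of these 733 genes, but so they did for 48% of all tested genes, 24.1% above and 24% below. With 1 surrogate variable in the model, 936 genes were called on raw counts and 418 in both fits, and 366 of the 572 rises but 11 of the 161 falls kept both calls.

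**Figure D2:**
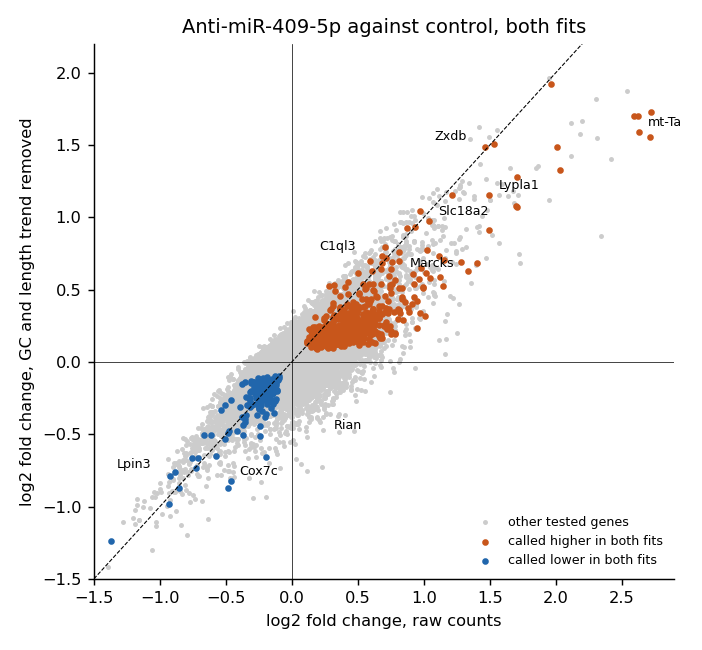
Log2 fold change with the GC and length trend removed (y axis) against that on raw counts (x axis), each point a tested gene; the dashed line marks equality. Genes called in both fits, 572 higher and 161 lower, are coloured, and the higher genes have a lower median with the trend removed (0.22) than on raw counts (0.42).

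The calls depended strongly on the 2 control libraries. Without control replicate 1, 1302 genes were called on raw counts, 284 with the trend removed and 158 in both, and without control replicate 2, 461 were called in both. Of the 572 genes called higher in both fits, 141 kept both calls without control replicate 1 and 326 without control replicate 2, and of the 161 called lower, 5 and 62 did. Both calls were kept by 126 genes whichever single library was left out (0.748% of those tested), of which 125 rose (0.742%) and 1, Atp5e, fell (0.00594%). The 125 rises had log2 fold changes of 0.16 to 1.59 with the trend removed, with a median of 0.32. Where the median GC content and length over a gene's annotated transcripts replaced those of the longest, 118 of the 125 rises and Atp5e kept the calls. These 126 genes are called stable below, a criterion chosen after the data were seen. It asks for the raw call as well: with the trend removed alone, 132 genes were called higher and 101 lower under every omission, of which 130 and 17 were called the same way on raw counts of all libraries and 0 and 16 the other way.

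The largest rises were in genes of unlike function. mt-Ta, the mitochondrial alanine tRNA, stood at 2.38 and 2.64 CPM in control and 11.1, 17.03, 16.7 and 17.5 in the treated libraries. Its log2 fold change was 2.63 ± 0.23 (SE) on raw counts (edgeR adjusted p = 4.9e-05) and 1.59 ± 0.24 with the trend removed (edgeR adjusted p = 0.0035). All treated libraries were well above control, but the gene lies at the edge of the trend, with 35 tested genes at or below its 33.3% GC and 78 with transcripts under 200 bases. Zxdb, an intronless X-linked zinc finger gene, stood at 2.28 and 3.14 CPM in control and 5.83, 7.21, 8.76 and 8.34 in the treated libraries. Its log2 fold change of 1.46 ± 0.21 on raw counts was 1.48 ± 0.22 with the trend removed (edgeR adjusted p = 0.0017). Slc18a2, which encodes the vesicular monoamine transporter VMAT2, stood at 2.17 and 2.51 CPM in control and 4.19, 4.29, 5.13 and 5.71 in the treated libraries. The log2 fold change was 1.04 ± 0.16 on raw counts and 0.98 ± 0.15 with the trend removed (edgeR adjusted p = 1.6e-04). In all 3 genes the groups were apart and the calls stable.

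C1ql3, a secreted C1q-like protein of synapses, and Marcks, a membrane-bound substrate of protein kinase C that binds actin, were among the stable rises as well. C1ql3 stood at 11.7 and 14.5 CPM in control and 18.8, 19.1, 20.1 and 21.5 in the treated libraries, a log2 fold change of 0.59 ± 0.086 that was 0.70 ± 0.088 with the trend removed (edgeR adjusted p = 4.5e-05). Marcks stood at 182 and 196 CPM in control and 285, 329, 353 and 363 in the treated libraries. Its log2 fold change was 0.81 ± 0.080 on raw counts and 0.70 ± 0.077 with the trend removed (edgeR adjusted p = 8.1e-04). Neither gene had a treated library within the control range. Stap1, a signalling adaptor named after its values were seen, was low but also stable, at 0.462 and 0.501 CPM in control and 1.35, 1.43, 2.00 and 1.65 in the treated libraries (log2 fold change 1.28 with the trend removed).

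Of the 12 rises named by size, 5 did not keep the call with the trend removed when control replicate 1 was left out: Lypla1, Arxes2, Eid1, Zfp758 and Nudt10. Their log2 fold changes with the trend removed were 1.16, 1.16, 0.76, 0.69 and 0.69, and without that library 1.14, 1.05, 0.70, 0.47 and 0.64 (edgeR adjusted p = 0.26, 0.12, 0.070, 0.10 and 0.13). Lypla1, an acyl-protein thioesterase, also lost it without control replicate 2 (edgeR adjusted p = 0.19) or treated replicate 2, 3 or 4 (0.081, 0.084 and 0.092), and on raw counts without control replicate 1 (0.10) or 2 (0.056). It stood at 7.22 and 7.75 CPM in control and 12.6, 20.4, 25.6 and 26.1 in the treated libraries, a wide spread within the treated group. Nudt10 lost the call also without control replicate 2 (edgeR adjusted p = 0.053). Arxes2 and Nudt10 have close copies, Arxes1 and Nudt11, so the counting could have moved reads between copies. Both copies were called higher in both fits (log2 fold change with the trend removed 0.51 for Arxes1 and 0.48 for Nudt11, named after their values were seen), Nudt11 stably and Arxes1 not without either control (edgeR adjusted p = 0.23 and 0.10).

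**Figure D3:**
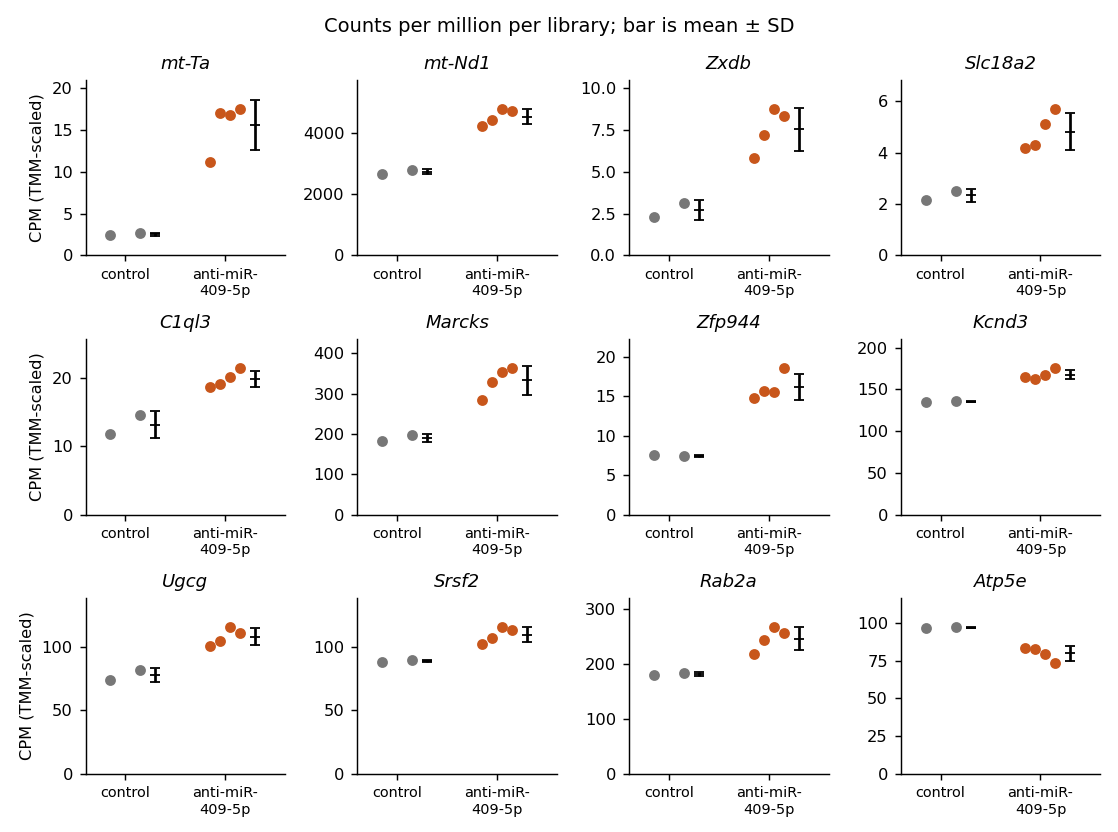
CPM after TMM scaling (y axis) in each library for 11 stable rises and the stable fall, Atp5e; grey points are the 2 control libraries, coloured points anti-miR-409-5p replicates 1 to 4 from left to right, and the bar is mean ± SD. In every panel all 4 treated libraries lie on one side of both controls, as for Atp5e (96.8 and 97.1 CPM in control, 83.5, 83.0, 79.3 and 73.2 in the treated libraries).

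Several neighbouring zinc finger genes on chromosome 17 of mm10 rose. Zfp942 (21926960 to 21962464), Zfp943 (21962552 to 22071168), Zfp994 (22197265 to 22225616), Zfp944 (22337989 to 22361400) and Zfp758 (22361453 to 22377281) lie in a single stretch. Zfp944 stood at 7.54 and 7.38 CPM in control and 14.7, 15.7, 15.6 and 18.5 in the treated libraries. Zfp994 stood at 4.87 and 5.24 CPM in control and 9.98, 11.2, 11.1 and 12.6 in the treated libraries. Log2 fold changes on raw counts were 1.05 for Zfp942, 0.93 for Zfp943, 1.151 for Zfp994 and 1.12 for Zfp944, and with the trend removed 0.58, 0.45, 0.70 and 0.73 (edgeR adjusted p = 8.6e-06, 3.9e-04, 3.4e-05 and 1.0e-05). These 4 genes are stable, Zfp758 as given above is not, and Zfp942 was picked after its values were seen. Over the 354 tested genes named Zfp, which mostly encode DNA-binding repressors, 120 rose and 20 fell on raw counts and 17 rose and 9 fell with the trend removed (4.80% and 2.54%, beside 3.98% and 3.46% of all genes). In both fits 17 rose and 3 fell (4.80% and 0.847%, beside 3.4% and 0.956%), shares near those of all genes. Zinc finger genes of such runs share much sequence, and how reads that map to several places were counted is not given in the sources used here.

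The largest falls were smaller than the largest rises. Cox7c, a subunit of cytochrome c oxidase, stood at 6.15 and 5.55 CPM in control and 4.41, 4.23, 4.31 and 4.03 in the treated libraries. Its log2 fold change was -0.46 ± 0.12 on raw counts and -0.82 ± 0.14 with the trend removed (edgeR adjusted p = 4.4e-04). Cox16, an assembly factor of the same enzyme, stood at 3.77 and 3.34 CPM in control and 2.504, 2.86, 2.54 and 2.25 in the treated libraries (log2 fold change -0.48 on raw counts and -0.87 with the trend removed). In both genes the treated libraries were below control. Lpin3, a lipin-family phosphatidate phosphatase, stood at 3.63 and 3.41 CPM in control and 2.205, 2.13, 1.72 and 1.52 in the treated libraries (-0.89 and -0.76). Aimp1, a scaffold protein of the aminoacyl-tRNA synthetase complex, stood at 43.8 and 38.4 CPM in control and 34.2, 36.9, 37.2 and 35.5 in the treated libraries (-0.19 and -0.66). The groups did not overlap in these genes either, but Aimp1 depended on the transcript used, at -0.23 where the median over transcripts replaced the longest.

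The other falls named by size were Trim21, Fam221b, Washc3, Adamts14, Zfp90, Mapkapk3, Gng10 and Exd1, with log2 fold changes from -0.65 (Trim21) to -0.48 (Exd1) with the trend removed. Without control replicate 1, 11 of the 12 falls lost the call on raw counts and 10 with the trend removed, none keeping both. On raw counts that omission gave edgeR adjusted p of 0.17 for Cox7c, 0.27 for Cox16 and 0.50 for Aimp1, and with the trend removed 0.071 for Lpin3. The omission of control replicate 2 ended 7 of the 12 calls in each fit, and a surrogate variable all 12 on raw counts. Atp5e, the epsilon subunit of ATP synthase, named after its values were seen, fell under every omission of a library. It stood at 96.8 and 97.1 CPM in control and 83.5, 83.0, 79.3 and 73.2 in the treated libraries, a log2 fold change of -0.28 ± 0.052 on raw counts and -0.22 ± 0.041 with the trend removed (edgeR adjusted p = 0.0013). With a surrogate variable its adjusted p on raw counts was 0.060 (edgeR).

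Splicing and mRNA-binding factors, which shape messages in the nucleus and cytoplasm, were called more often than all genes, mostly higher. Of 66 tested, 41 rose and 2 fell on raw counts, and 18 rose and 6 fell with the trend removed (27.3% and 9.09%, beside 3.98% and 3.46% of all genes). In both fits 17 rose and 0 fell (25.8%, beside 3.4% of all genes called higher and 0.956% lower). The list's median log2 fold change with the trend removed was 0.083 against 0.0013 for all genes, and it was above 0 in all 24 alternatives of that fit. Without control replicate 1, 8 of the 17 kept both calls. The list has a median GC content of 43.9%, below the 49.5% of all tested genes. Stable members were Luc7l2, Srsf1, Srsf2, Srsf7, Srsf10, Tra2a and Hnrnpk, mostly SR proteins, which bind exonic enhancers and recruit the spliceosome.

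Luc7l2, a U1 snRNP-associated factor, stood at 74.6 and 80.7 CPM in control and 115, 126, 139 and 140.3 in the treated libraries (log2 fold change 0.74 ± 0.085 on raw counts and 0.51 ± 0.048 with the trend removed, edgeR adjusted p = 6.2e-06). Srsf2 stood at 88.3 and 89.5 CPM in control and 102, 107, 115 and 113 in the treated libraries, and its log2 fold change was 0.30 ± 0.049 on raw counts and 0.37 ± 0.048 with the trend removed. The treated libraries were above control in both genes. Smaller rises with the trend removed were those of Srsf1 (0.28), Srsf10 (0.35), Tra2a (0.22), Srsf7 (0.22) and Hnrnpk (0.18), and Srsf7 lost the call with the median over transcripts (edgeR adjusted p = 0.057). Fmr1, which encodes the translational repressor FMRP, rose by 0.37 in log2 terms with the trend removed, but not without control replicate 1 (edgeR adjusted p = 0.10) or 2 (0.052). Luc7l2, Srsf2, Srsf10, Tra2a and Fmr1 were named after their values were seen. So was Nudt21, a partner of Cpsf6 in the choice of poly(A) sites, which was a stable rise outside the list, at 18.7 and 20.4 CPM in control and 25.5, 28.6, 29.8 and 31.7 in the treated libraries (0.34 with the trend removed).

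A few genes of the microRNA machinery rose in both fits. Of 34 tested members, 13 rose and 1 fell on raw counts. With the trend removed 3 rose and 1 fell (8.82% and 2.94%, beside 3.98% and 3.46% of all genes). In both fits 3 rose and 0 fell (8.82%, beside 3.4% of all genes called higher and 0.956% lower). They were Ddx6, an RNA helicase of the repression complexes that microRNAs recruit, Ddx5, a helicase that acts with Drosha, and Pan3, of a deadenylase complex (named after its value was seen). Ddx6 stood at 126 and 132 CPM in control and 161, 165, 178 and 185 in the treated libraries, a log2 fold change of 0.42 ± 0.052 on raw counts and 0.22 ± 0.033 with the trend removed (edgeR adjusted p = 1.6e-04). Ddx5 rose by 0.35 and 0.18 on the log2 scale, and it and Ddx6 are stable. The list's median with the trend removed was 0.022 and turned negative when length alone was corrected for.

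Ubiquitin-conjugating (E2) enzymes hand ubiquitin on to target proteins. Of 33 tested Ube2 genes, 15 rose and 2 fell on raw counts (beside 15.6% and 12.2% of all genes), and 10 rose and 1 fell with the trend removed (30.3% and 3.03%, beside 3.98% and 3.46%). In both fits 9 rose and 0 fell (27.3%, beside 3.4% called higher and 0.956% lower), and 2 of the 9 kept both calls without control replicate 1. Ube2d3, a broadly used E2 enzyme, stood at 82.1 and 92.4 CPM in control and 138, 159, 176 and 171 in the treated libraries (log2 fold change 0.88 ± 0.091 on raw counts and 0.37 ± 0.052 with the trend removed, edgeR adjusted p = 3.3e-04). Ube2j1, an E2 enzyme of the endoplasmic reticulum, rose by 0.38 and 0.26, and both are stable. Ube3a, an imprinted ubiquitin ligase named after its values were seen, stood at 81.1 and 93.1 CPM in control and 135, 157, 172 and 184 in the treated libraries (0.89 ± 0.12 and 0.34 ± 0.040), and was stable too.

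Of 51 tested endosomal trafficking and Rab genes, 22 rose and 10 fell on raw counts and 10 rose and 0 fell with the trend removed (19.6%, beside 3.98% of all genes called higher and 3.46% lower). In both fits 9 rose and 0 fell (17.6%, beside 3.4% and 0.956%), 3 of them stably (beside 0.742%). Rab18, which sits on lipid droplets and the endoplasmic reticulum, stood at 104 and 111 CPM in control and 145, 158, 171 and 165 in the treated libraries (log2 fold change 0.57 ± 0.057 on raw counts and 0.21 ± 0.038 with the trend removed, edgeR adjusted p = 8.9e-04). Rab2a, of traffic between endoplasmic reticulum and Golgi, stood at 180.0 and 184 CPM in control and 218, 245, 267 and 258 in the treated libraries (0.44 ± 0.060 and 0.33 ± 0.048). Rab21, of early endosomes, rose by 0.46 and 0.25. In all 3 the groups were apart. Outside that list, the small GTPases Rap2b (0.64 with the trend removed), Arf6 (0.52), Rab39b (0.51) and Rala (0.32) were stable rises. These 4 and Rab2a were named after their values were seen. Arf6, which acts in endocytosis and at the plasma membrane, stood at 43.1 and 44.4 CPM in control and 51.0, 53.2, 53.8 and 54.3 in the treated libraries. Its log2 fold change was smaller on raw counts (0.28 ± 0.048) than with the trend removed (0.52 ± 0.059), and its transcript has 60.04% GC.

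Genes of excitability and calcium signalling were also among the rises. Of 44 tested potassium and HCN channel genes 7 rose and 0 fell with the trend removed (15.9%), 3 of 25 sodium and calcium channel genes rose and 0 fell (12.0%), 5 of 21 GABA receptor and inhibitory postsynapse genes rose and 1 fell (23.8% and 4.76%), and 9 of 50 kinase and calcium signalling genes rose and 1 fell, beside 3.98% and 3.46% of all genes. In both fits 5, 3, 4 and 8 rose (11.4%, 12.0%, 19.0% and 16.0%, beside 3.4%) and 0, 0, 0 and 1 (Mapkapk3) fell. Of these rises 1, 2, 1 and 2 kept both calls without control replicate 1. Kcnd3, the A-type potassium channel subunit Kv4.3, stood at 135 and 136 CPM in control and 165, 163, 167 and 175 in the treated libraries (log2 fold change 0.31 ± 0.039 on raw counts and 0.27 ± 0.031 with the trend removed, edgeR adjusted p = 1.3e-05). Kcnj3, the inwardly rectifying channel GIRK1, rose by 0.56 and 0.39, with an adjusted p of 0.054 without control replicate 1 (edgeR, trend removed). The calcium channel subunits Cacnb4 (0.63 and 0.29) and Cacna2d1 (0.54 and 0.22) were stable. Cacnb4 stood at 52.4 and 55.9 CPM in control and 76.2, 81.2, 85.6 and 92.5 in the treated libraries. Gabra4, a GABA-A receptor subunit and the stable member of its list, stood at 78.2 and 87.5 CPM in control and 105, 114, 120.5 and 118 in the treated libraries (0.46 ± 0.057 and 0.24 ± 0.039). The treated libraries were above control in each of these genes.

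Calcineurin, the calcium-dependent phosphatase, had its regulatory and a catalytic subunit among the stable rises. Ppp3r1, the regulatory subunit, stood at 242 and 262 CPM in control and 339.8, 374, 398 and 390.0 in the treated libraries, a log2 fold change of 0.57 ± 0.054 on raw counts and 0.33 ± 0.036 with the trend removed (edgeR adjusted p = 8.6e-06). Ppp3cb, named after its values were seen, rose by 0.50 and 0.17, but stood at 0.060 with the median over transcripts (edgeR adjusted p = 0.30). Camk4, a kinase of calcium-dependent transcription also named after its values were seen, rose by 0.37 and 0.35, with an adjusted p of 0.11 without control replicate 1 (edgeR, trend removed). The trend-removed medians of the potassium channel list (0.019) and of the sodium and calcium channel list (0.0039) lay near 0 and changed sign in 1 and 5 of 24 alternatives.

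Most mitochondrially encoded transcripts were called higher on raw counts, and fewer with the trend removed. On raw counts 8 of 9 tested mitochondrial protein and rRNA genes and 10 of 12 mitochondrial tRNA genes rose, and 0 fell. Once the trend was removed, 3 of the 9 rose and 1 fell (33.3% and 11.1%), and 3 of the 12 tRNA genes rose and 0 fell, beside 3.98% and 3.46% of all genes. The same 3 and 3 rose in both fits, beside 3.4%, and 1 and 2 kept both calls without control replicate 1. The gene that fell with the trend removed was mt-Nd4, a complex I subunit named after its values were seen, with a log2 fold change of 0.34 ± 0.11 on raw counts, where it was called higher (edgeR adjusted p = 0.048), and -0.18 ± 0.045 with the trend removed (edgeR adjusted p = 0.029). It lost both calls without control replicate 1 or 2 (edgeR adjusted p = 0.22 and 0.15 with the trend removed). mt-Nd1, a complex I subunit, stood at 2675 and 2800.4 CPM in control and 4221, 4431, 4783 and 4706 in the treated libraries (log2 fold change 0.73 ± 0.061 on raw counts and 0.34 ± 0.036 with the trend removed, edgeR adjusted p = 5.4e-05), and was stable. mt-Nd2 rose by 0.81 and 0.29 but lost the call without control replicate 1 (edgeR adjusted p = 0.16, and 0.076 on raw counts) or 2 (0.073). mt-Rnr1, the small ribosomal RNA, rose by 0.63 on raw counts and 0.13 with the trend removed, and stood at -0.0050 with the median over transcripts. It lost the call without control replicate 1 (edgeR adjusted p = 0.40), control replicate 2 (0.057) or treated replicate 4 (0.052). mt-Co1 was called on raw counts alone (0.30, and 0.034 with the trend removed).

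The median of the mitochondrial protein and rRNA genes with the trend removed, 0.13, went to -0.0045 with the median over transcripts, so its direction depends on that choice. These genes have low GC content (median 35.8%), where few others lie: 393 tested genes are at or below the 37.6% of mt-Nd1. Reads of the closely packed mitochondrial genes on opposite strands cannot be told apart in libraries that do not mark strand.

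Nuclear oxidative phosphorylation genes encode most subunits of the respiratory chain and ATP synthase, and were called lower more often than all genes. Of 77 tested, 1 rose and 44 fell on raw counts, 1 rose and 26 fell with the trend removed (1.30% and 33.8%, beside 3.98% and 3.46% of all genes), and 0 rose and 17 fell in both fits (22.1%, beside 0.956%). The list's median with the trend removed was -0.091 against 0.0013 for all genes, and it was below 0 in all 24 alternatives. Ndufa1, a complex I subunit, stood at 47.5 and 43.4 CPM in control and 40.2, 39.9, 37.8 and 36.9 in the treated libraries (log2 fold change -0.23 ± 0.052 on raw counts and -0.27 ± 0.053 with the trend removed, edgeR adjusted p = 0.0017). Ndufb3 of complex I (-0.24 and -0.30) and Uqcrc2 of complex III (-0.11 and -0.20) fell as well, and these 3 genes were named after their values were seen.

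The falls of this list depended on control replicate 1. Without it, Atp5e alone of the 17 kept both calls, and 13 did without control replicate 2. By the fit with the trend removed alone, 6 of the 26 falls kept the call under every omission of a library. Without control replicate 1 the adjusted p on raw counts was 0.17 for Ndufa1, 0.40 for Ndufb3 and 0.24 for Uqcrc2 (edgeR). Uqcrc2 lost its call on raw counts also without control replicate 2 (edgeR adjusted p = 0.11) or treated replicate 2, 3 or 4 (0.051, 0.077 and 0.060).

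Other housekeeping lists held more falls than rises with the trend removed. Then 7 of 81 cytosolic ribosomal protein genes fell and 3 rose (8.64% and 3.70%), 4 of 22 glycolytic enzymes and glucose transporters fell and 0 rose (18.2%), 11 of 77 mitochondrial ribosomal protein genes fell and 1 rose (14.3% and 1.30%), and 6 of 38 proteasome subunits fell and 0 rose (15.8%), beside 3.46% of all genes lower and 3.98% higher. In both fits 5, 3, 2 and 1 fell (6.17%, 13.6%, 2.60% and 2.63%, beside 0.956%) and 1, 0, 0 and 0 rose. Of these falls 0, 1, 0 and 0 kept both calls without control replicate 1, and 3, 1, 0 and 0 without control replicate 2. The medians of the 4 lists with the trend removed, -0.074, -0.069, -0.068 and -0.051, stayed below 0 in all 24 alternatives. Ldha, lactate dehydrogenase A, stood at 725 and 755 CPM in control and 651, 637, 600.1 and 577 in the treated libraries (log2 fold change -0.26 ± 0.052 on raw counts and -0.16 ± 0.038 with the trend removed), and lost the call without control replicate 2 (edgeR adjusted p = 0.21, trend removed). The glucose transporter gene Slc2a1, named after its values were seen, stood at 60.4 and 58.7 CPM in control and 50.1, 47.5, 43.8 and 45.6 in the treated libraries (-0.35 and -0.24), with an adjusted p of 0.092 without control replicate 1 (edgeR, trend removed). Pfkl, a phosphofructokinase also named after its values were seen, was the other glycolytic fall (-0.28 and -0.14). The ribosomal protein gene that rose in both fits was Rpl15, stably, at 53.8 and 60.1 CPM in control and 76.5, 82.4, 85.1 and 80.4 in the treated libraries (0.51 ± 0.054 and 0.38 ± 0.042). Ribosomal protein genes have many processed copies, so their counts are uncertain.

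**Figure D4:**
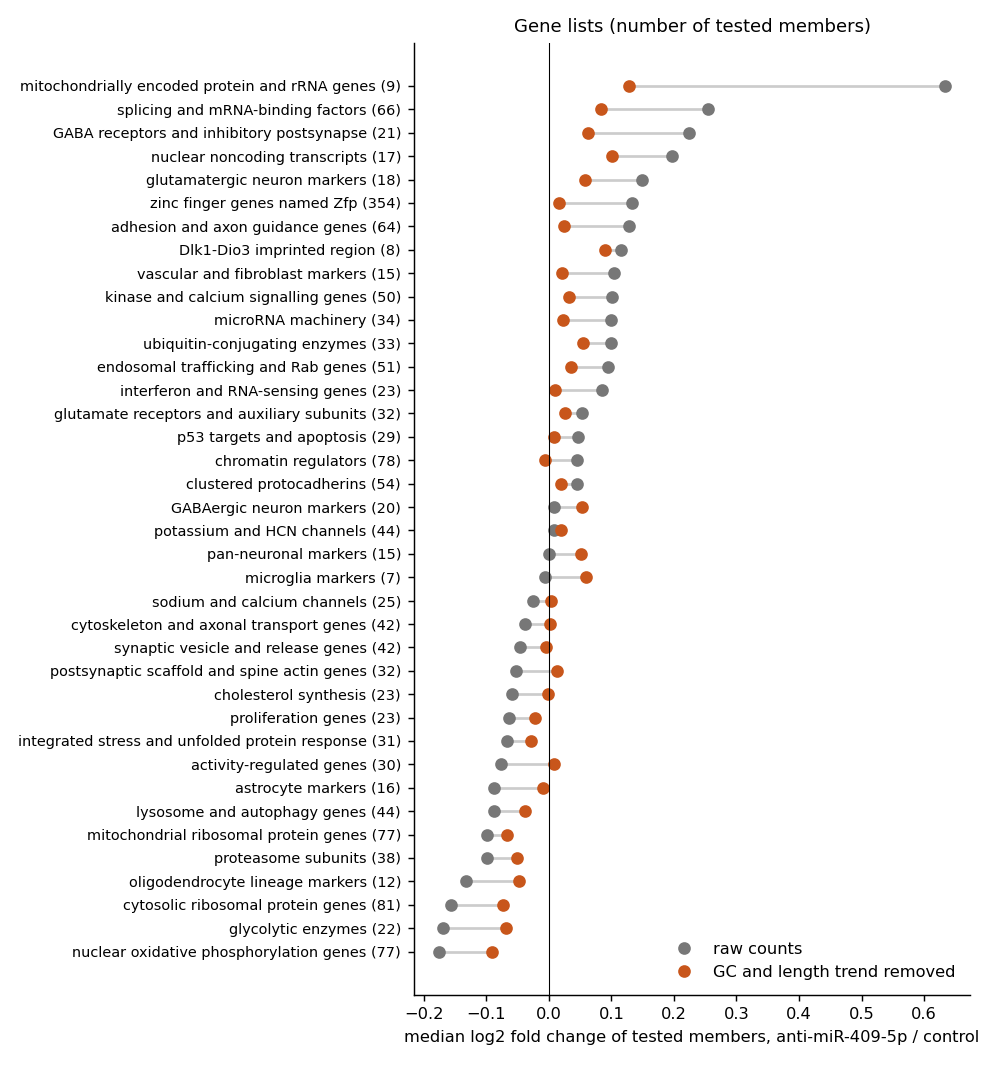
Median log2 fold change of the tested members of each gene list (x axis; number of tested members in brackets), on raw counts and with the GC and length trend removed; mitochondrial tRNA genes, at 1.84 and 0.85, are left out. Most medians are nearer 0 with the trend removed, as for splicing and mRNA-binding factors (0.25 and 0.083) and nuclear oxidative phosphorylation genes (-0.18 and -0.091).

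Genes of the synapse showed no common direction. Of 32 glutamate receptor genes 2 rose and 2 fell with the trend removed, 3 of 32 postsynaptic scaffold genes rose and 2 fell, and 2 of 42 synaptic vesicle genes rose and 3 fell. In both fits 2, 1 and 2 rose (6.25%, 3.13% and 4.76%, beside 3.4% of all genes) and 0, 1 and 1 fell (beside 0.956%). Syp, the vesicle protein synaptophysin, stood at 889 and 860.3 CPM in control and 807, 796, 758 and 754 in the treated libraries (log2 fold change -0.17 ± 0.035 on raw counts and -0.27 ± 0.034 with the trend removed, edgeR adjusted p = 5.0e-05). Dlg4, the postsynaptic scaffold PSD-95, stood at 640.1 and 617 CPM in control and 576, 564, 543 and 556 in the treated libraries (-0.17 ± 0.037 and -0.27 ± 0.037). Their falls with the trend removed depended on the transcript chosen to measure GC content: with the median over transcripts Syp stood at -0.019 (edgeR adjusted p = 0.79) and Dlg4 at -0.011 (0.89). On raw counts both lost the call without control replicate 1 (edgeR adjusted p = 0.097 and 0.12). Grin2a, the NMDA receptor subunit GluN2A, rose by 0.38 and 0.20, with an adjusted p of 0.33 without control replicate 1 (edgeR, trend removed). Slc1a1, a neuronal glutamate transporter named after its values were seen, was a stable rise (0.31 and 0.27).

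Other abundant genes changed by little. Slc1a2, the main astrocytic glutamate transporter, stood at 1877 and 2003 CPM in control and 2283, 2266, 2343 and 2513 in the treated libraries (log2 fold change 0.28 and 0.12), with an adjusted p of 0.11 without control replicate 1 (edgeR, trend removed). Atp1b1, a sodium pump subunit, rose by 0.12 and 0.14, with adjusted p of 0.10 and 0.084 without that library (edgeR). Rtn4, the reticulon Nogo, rose by 0.19 and 0.092 but stood at -0.038 with the median over transcripts, and lost the call with the trend removed without control replicate 1 (edgeR adjusted p = 0.52) or treated replicate 2, 3 or 4 (0.081, 0.11 and 0.11). None of these 3 rises is stable. Among the falls, Atp6v0a1, a subunit of the vacuolar proton pump, stood at 714 and 718 CPM in control and 663, 652, 646 and 638 in the treated libraries (-0.14 and -0.20), with an adjusted p of 0.082 without control replicate 1 (edgeR, raw counts). The tubulin Tubb2b (-0.19 and -0.10) and the ferritin heavy chain Fth1 (-0.19 and -0.13) had adjusted p of 0.75 and 0.093 without it (edgeR, trend removed). Tubb2b lost the call also without treated replicate 2, 3 or 4 (0.078, 0.077 and 0.13).

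Stress and immune lists showed little that held. In both fits 0 of 23 tested interferon and RNA-sensing genes were called in either direction, by edgeR, with 1 higher and 3 lower on raw counts. Of 31 integrated stress and unfolded protein response genes 1 rose (Dnajb9) and 1 fell (Ddit3) in both fits (3.23% each). Of 30 activity-regulated genes 1 rose (Nr4a3, 3.33%) and 0 fell, beside 3.4% and 0.956% of all genes. None of these 3 genes is stable. With the trend removed alone 1 and 2 rose (3.23% and 6.67%, beside 3.98%) and 3 and 1 fell (9.68% and 3.33%, beside 3.46%). The median of the stress list was then -0.028, and it was below 0 in all 24 alternatives. Of 29 p53 target and apoptosis genes 4 rose and 0 fell in either count (13.8%, beside 3.4% and 0.956% of all genes in both fits), none of them stably, among them Cycs, cytochrome c, at 4.27 and 4.48 CPM in control and 6.88, 7.24, 7.03 and 8.18 in the treated libraries, and Bcl2, an inhibitor of apoptosis (log2 fold change 0.47 and 0.31 with the trend removed). Without control replicate 1 the edgeR adjusted p were 0.097 for Cycs and 0.12 for Bcl2, and without control replicate 2 they were 0.059 and 0.13. Of 23 cholesterol synthesis genes, 5 rose and 7 fell on raw counts and 0 were called with the trend removed.

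The remaining lists were mixed. Removal of the trend left calls in each: 4 of 64 adhesion and axon guidance genes rose and 3 fell, 4 of 78 chromatin regulators rose and 1 fell, 2 of 17 nuclear noncoding transcripts rose and 2 fell, and 1 of 54 clustered protocadherins rose and 0 fell. In both fits 3, 2, 2 and 1 rose (4.69%, 2.56%, 11.8% and 1.85%, beside 3.4% of all genes) and 0 fell in each (beside 0.956%), shares near those of all genes but for the noncoding transcripts, where 2 genes make it up. On raw counts these lists had 25, 14, 7 and 5 members higher and 9, 8, 0 and 2 lower. Of 44 lysosome and autophagy genes, 2 rose and 7 fell with the trend removed (4.55% and 15.9%, beside 3.98% and 3.46% of all genes). In both fits 1 rose and 2 fell (2.27% and 4.55%, beside 3.4% and 0.956%). This list was thus called lower more often than all genes, with a median of -0.038 with the trend removed. The 2 falls in both fits are not stable, and with the median over transcripts 0 members fell in both fits. Of 42 cytoskeleton genes, 2 rose and 4 fell with the trend removed, and in both fits 1 rose (Nefl, the light neurofilament, stably, 0.22 and 0.20) and 1 fell (Tubb2b). The trend-removed medians of the chromatin, protocadherin and cytoskeleton lists changed sign in 2, 2 and 5 of 24 alternatives, and those of the other 3 in none.

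The labelled cell type was checked against markers. The 15 pan-neuronal markers summed to 10895 to 11104 CPM in control and 11261 to 11669 in the treated libraries, with the dendritic protein Map2 at 1979 and 2023 CPM in control and 2197 to 2504 in the treated libraries. The 16 astrocyte markers summed to 5807 to 5946 CPM in control and 6099.6 to 6358 in the treated libraries, so the cultures also held astrocyte transcripts. Slc1a2 was the most abundant of these markers and lay above both controls in all 4 treated libraries. Gfap, the astrocytic intermediate filament, stood at 497 and 534 CPM in control and between 440.03 and 499 in the treated libraries, where the groups overlap. Sums for other types were low: 15 microglia markers 29.0 to 31.7 CPM in control and 27.2 to 30.2 in the treated libraries, 15 oligodendrocyte lineage markers 486 to 671 and 448 to 552, and 17 vascular and fibroblast markers 467 to 662 and 436 to 559. No marker was at 0 in all 6 libraries, but the microglial P2ry12 and Cx3cr1 stood at or below 0.234 CPM and Cldn5 of endothelium at or below 0.0711 CPM.

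In both fits 2 of 16 astrocyte markers rose (Slc1a2 and, named after its value was seen, Glul), 3 of 18 glutamatergic markers (among them Mef2c and Prox1) and 0 of 20 GABAergic ones. These are 12.5%, 16.7% and 0%, beside 3.4% of all genes, and 0 fell in these 3 lists (beside 0.956%). Of 15 pan-neuronal markers 1 rose (Nefl) and 1 fell (Syp), 6.67% each. With the trend removed alone 1 glutamatergic marker fell and 1 GABAergic marker rose. In that fit 1 pan-neuronal marker rose and 2 fell (6.67% and 13.3%, beside 3.98% and 3.46% of all genes). No tested microglia, oligodendrocyte, vascular or proliferation marker was called in both fits. Mef2c (0.18) and Prox1 (0.18) lost the call with the trend removed without control replicate 1 (edgeR adjusted p = 0.33 and 0.11). The higher astrocyte and pan-neuronal sums were not rises of the lists as a whole. On raw counts 5 astrocyte markers rose and 4 fell, and 6 pan-neuronal markers rose and 6 fell. The median log2 fold changes on raw counts were -0.087 and -0.00022. The part of the higher sums in the rises was not tested, and in bulk RNA fewer cells of a type and less RNA per cell cannot be told apart.

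Genes with a seed site for miR-409-5p had higher fold changes on raw counts, and little of this remained once the trend was removed. Of 14277 tested genes with an annotated 3′ UTR, 10.4% had a site of any kind in the longest one and 1.62% an 8-base site. The 232 genes with an 8-base site had a median log2 fold change of 0.093 on raw counts against -0.033 for the 12743 genes with no site. With the trend removed the medians were 0.0096 and -0.0029, a difference of 0.0125 in place of 0.127. Genes with the 7-base site that pairs with the whole seed (n = 438) had medians of 0.041 and -0.00013, and those with the site ending opposite base 1 (n = 819) of 0.072 and 0.014. Genes with an 8-base site were lower in GC content than those with none (median 46.8% against 50.2%) and had longer 3′ UTRs (median 2771 against 1260 bases). These values describe the genes and carry no test.

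**Figure D5:**
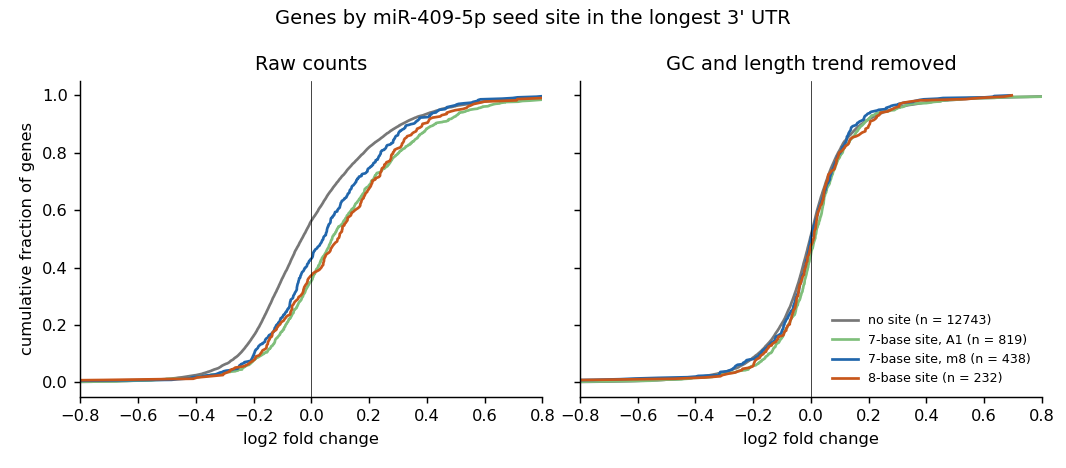
Cumulative fraction of genes (y axis) by log2 fold change (x axis) for genes with an 8-base site, a 7-base site or no site for miR-409-5p in the longest 3′ UTR, on raw counts and with the GC and length trend removed. On raw counts genes with an 8-base site lie to the right of genes with none (medians 0.093 and -0.033), and with the trend removed the curves nearly coincide (0.0096 and -0.0029).

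Among genes with an 8-base site, 17 rose with the trend removed and 11 fell (7.33% and 4.74%), against 4.20% and 4.00% of genes with no site. In both fits 16 rose and 2 fell (6.90% and 0.862%), against 3.50% and 1.11%. Genes with the 7-base site ending opposite base 1 had 7.33% higher and 2.93% lower with the trend removed (6.84% and 0.733% in both fits). Genes with the 7-base site that pairs with the whole seed had 4.11% and 4.79% (3.88% and 0.228% in both fits). Marcks and Kcnd3, whose sites are shown above, are described with the genes of their kind. Ugcg, which makes glucosylceramide, stood at 74.1 and 81.5 CPM in control and 100.3, 105, 115 and 111 in the treated libraries (log2 fold change 0.47 ± 0.060 on raw counts and 0.31 ± 0.045 with the trend removed, edgeR adjusted p = 1.5e-04). Ccdc71l, a single-exon gene, stood at 21.6 and 22.9 CPM in control and 27.9, 30.4, 32.2 and 31.4 in the treated libraries (0.45 ± 0.068 and 0.38 ± 0.060). In both genes the treated libraries were above control and the calls stable, whereas those of Yes1 and Cpsf6 are not. Yes1, a Src-family kinase, rose by 0.58 and 0.31, and with the trend removed lost the call without control replicate 1 (edgeR adjusted p = 0.23), control replicate 2 (0.11) or treated replicate 3 or 4 (0.073 and 0.056). Cpsf6, a factor of mRNA 3′ end formation, rose by 0.71 and 0.27 and lost the call on raw counts without control replicate 1 (edgeR adjusted p = 0.061).

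Removing the trend reversed some calls. In 70 genes the fits gave opposite calls, in 69 of them higher on raw counts and lower with the trend removed. Phf14, a chromatin reader protein, stood at 74.2 and 79.8 CPM in control and 90.3, 99.8, 104 and 113 in the treated libraries, above control in all 4. Its log2 fold change was 0.40 on raw counts (edgeR adjusted p = 0.0067) and -0.37 with the trend removed (edgeR adjusted p = 1.1e-05), and 0.20 with the median over transcripts in place of the longest. The endocytic adaptor Fnbp1l (0.35, -0.37 and 0.037 in the same order), Rbbp6 (0.19, -0.39 and 0.047) and Nktr (0.25, -0.29 and 0.14) were alike in this. Ube2m, an E2 enzyme for NEDD8, was the gene called the opposite way (-0.14, 0.15 and 0.0068). All 5 lost the raw call without control replicate 1. The longest transcripts of Phf14, Fnbp1l, Rbbp6 and Nktr have 33.3%, 34.0%, 36.2% and 37.0% GC, and that of Ube2m 63.4%.

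Few genes in the host region of miR-409 were called. Of 8 tested Dlk1-Dio3 genes, 1 rose and 1 fell on raw counts and none was called alike in both fits. The list's median log2 fold change was 0.12 on raw counts and 0.090 with the trend removed. It turned negative on raw counts with 1 surrogate variable, and stayed above 0 in all 24 alternatives with the trend removed. Mirg, a long noncoding transcript of the microRNA cluster, stood at 21.5 and 21.3 CPM in control and 22.9, 23.1, 20.6 and 24.0 in the treated libraries, where the groups overlap (log2 fold change 0.087 ± 0.066, edgeR adjusted p = 0.35). Meg3, the abundant maternal noncoding RNA of the region, stood at 2596 and 2993 CPM in control and 3126, 3294, 3395 and 3297 in the treated libraries, a log2 fold change of 0.23 ± 0.097 that missed the threshold (edgeR adjusted p = 0.11). Rian, another maternal noncoding RNA, stood at 525 and 556 CPM in control and 615, 659, 672 and 645 in the treated libraries, and rose by 0.26 ± 0.047 on raw counts (edgeR adjusted p = 8.3e-04). With the trend removed it stood at -0.35 ± 0.074 (edgeR adjusted p = 0.025) and with the median over transcripts at 0.056, so its direction depends on the processing. The call with the trend removed was lost without control replicate 1 (edgeR adjusted p = 0.20), control replicate 2 (0.076) or treated replicate 3 (0.069).

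Genes with few exons were more often called higher than genes with many once the trend was removed. Among protein-coding genes, 29 of 331 with a single exon in every transcript were called higher and 4 lower with the trend removed (8.76% and 1.21%), and 36 of 589 with 2 exons in the transcript that has most were called higher and 5 lower (6.11% and 0.849%). Among 6253 genes with over 10 exons, 184 were called higher and 270 lower (2.94% and 4.32%). Raw counts did not show this order: 14.2%, 12.2% and 17.8% of these 3 classes were called higher, and 10.9%, 11.2% and 14.0% lower. In both fits 23 of the 331 single-exon genes rose and 2 fell, beside 3.4% and 0.956% of all genes. Among these were the stable rises Zxdb, Rap2b and Ccdc71l. Loci annotated as still to be experimentally checked (TEC) took 0.0611% ± 0.00233 (SD, n = 2) of counts in control and 0.0768% ± 0.00602 (SD, n = 4) in the treated libraries, without overlap (exact permutation p = 0.0667). Of 435 tested TEC loci, 67 rose and 2 fell on raw counts (15.4% and 0.460%, beside 15.6% and 12.2% of all genes). With the trend removed 7 rose and 0 fell (1.61% and 0%, beside 3.98% and 3.46%). TEC loci were thus called higher no more often than all genes. Their median log2 fold change was nevertheless above that of all genes, at 0.35 against -0.012 on raw counts and 0.18 against 0.0013 with the trend removed. The part of the TEC share of counts in the result for single-exon genes was not tested. Differences between the exon classes carry no test.

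Against anti-miR-501-3p no gene was called (0% of 16884, edgeR's quasi-likelihood test), while 992 had an unadjusted p under 0.05 and the smallest adjusted p was 0.154. DESeq2 called 3 genes, 0 higher and 3 lower with anti-miR-409-5p. The labels do not say that the replicate numbers pair these libraries. With the replicate number taken as a block, 252 genes were called (1.49%), 98 higher (0.58%) and 154 lower (0.912%). Their median size was 0.16 on the log2 scale. The 3 genes of smallest p without the block were Fn1, Rgs11 and Bnip3. Fn1, fibronectin, stood at 55.4, 55.3, 51.4 and 52.6 CPM with anti-miR-409-5p and 72.4, 69.4, 70.1 and 64.7 with anti-miR-501-3p (log2 fold change -0.36, edgeR adjusted p = 0.15), and at 55.6 and 69.6 in control. Rgs11, a regulator of G protein signalling, stood at 78.8, 80.8, 74.6 and 73.7 and 86.8, 91.8, 90.2 and 87.8 (-0.21). Bnip3, a mitochondrial protein induced in hypoxia, stood at 49.8, 49.5, 48.3 and 47.8 and 67.4, 58.4, 57.6 and 55.6 (-0.29). Both anti-miR groups are set against the same 2 controls, and in the fit without the block no gene described above was called between the anti-miRs. Of the 252 genes called with the block, 26 were among the 733 called in both fits against control: 21 rises and 4 falls were lower with anti-miR-409-5p than with anti-miR-501-3p, and 1 rise was higher. Ldha was lower with anti-miR-409-5p in all 4 pairs of the same number, at 651, 637, 600.1 and 577 CPM against 741, 683, 677 and 647 (log2 fold change -0.16 with the block, edgeR adjusted p = 2.5e-04), and at 725 and 755 in control. Zxdb and mt-Nd2, both higher than in control, were lower than with anti-miR-501-3p (-0.28 and -0.084, edgeR adjusted p = 0.032 and 0.0078).

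In the authors' deposited table for this comparison, 3601 of 17645 genes had an adjusted p under 0.05, 2251 higher and 1350 lower, and 5137 had none given. Of the 4696 genes called here on raw counts, the authors' deposited table called 3511 in the same direction, which is 74.8% of these and 97.5% of its own calls. Of the 733 genes called in both fits, the authors' deposited table called 644 in the same direction (87.9%).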

How the data were processed

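The members, gene lists and rules used here were chosen with earlier results of these data known. Polyadenylated RNA was sequenced on a HiSeq2000 (TruSeq RNA kit v2, which does not mark strand; 50 bp single-end reads), per the labels' protocols. The submitters' processing notes name FastQC 0.11.5, STAR 2.5.2b, Subread 1.5.1, featureCounts and the mm10 build. The annotation release, the strand setting and the handling of reads with several alignments are not given in the sources used here. The authors deposited raw read counts per Ensembl gene, 1 table per library, without normalization. Their comparison table holds log2 fold changes and adjusted p-values, per the file headers, and the test behind them is not given in the sources used here.

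Genes were matched by identifier (48349 of 48709), filtered with filterByExpr, scaled by TMM and tested with edgeR 4.0.16 (R 4.3.3; two-sided robust quasi-likelihood test, Benjamini-Hochberg adjusted p of 0.05) in 1 fit of all 10 libraries in 3 groups. In a second fit an offset took out, per library, the trend of log2 deviations on natural splines (5 degrees of freedom) of GC content and log2 length of each gene's longest GENCODE M21 transcript, estimated where mean log2 CPM exceeded 1. Real differences that vary with GC content or length would be lost with it. Of tested genes 99.7% had GC content and length. CPM values are TMM-scaled, and errors of fold changes are standard errors. Lists carry counts and medians and no set test.

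Named genes are the 12 largest rises and falls and the 6 most abundant in each direction among genes called alike in both fits (named symbols only, average log2 CPM not under 1, groups apart), up to 4 of smallest raw p per list, 6 with an 8-base site, up to 4 each way with opposite calls, Mir409, Mirg, Rian and Meg3, and the 3 of smallest p between the anti-miRs. Not all that the rule took are reported here, and others are marked in the text. Alternatives were other scalings and filters, DESeq2 1.42.0, sva 3.50.0, 6 libraries alone, other forms of the trend, the replicate block and the omission of each library. Deviations of same-numbered libraries of the 2 anti-miRs correlated over genes (0.375, 0.164, 0.121 and 0.306), so the numbers were taken to pair them, which the labels do not state. For replicate 3 the pairing is unclear, as anti-miR-409-5p replicate 3 correlated more with anti-miR-501-3p replicate 4 (0.177). Control and anti-miR-409-5p share only 2 numbers. Differences between libraries of a group exceeded sampling noise.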

Additional observations from a re-analysis of the deposited data

Results flagged for a closer look

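In 222 values (the CPM of named genes and the library summaries), the 4 anti-miR-409-5p libraries were checked for a library that stands apart, by the gap to its nearest neighbour over the whole range (on the log2 scale for genes). Chance flags about 1 in 20 such groups, and 7 were found. mt-Ta was low in replicate 1, at 11.1 CPM against 16.7 to 17.5 in the others. mt-Ti, the mitochondrial isoleucine tRNA, was low in the same library, at 1.53 CPM against 2.22 to 2.36. Both remained above the control libraries. Tra2a was low in replicate 1 (108 CPM against 119 to 121), Slc1a1 was low there too (92.1 against 97.5 to 98.3), and Sncb was high there (242 against 226 to 228). In each case replicate 1 was the treated library nearest to control. Zfp946 was high in replicate 2 (14.8 CPM against 13.8 to 13.9). The slope of log2 counts per doubling of transcript length was high in replicate 4, at 0.0305 against -0.0021 to 0.00263 in the others.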

How the results depend on the processing

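Over the omissions of 1 library each, calls on raw counts numbered 1302 to 5111 (1132 to 2889 higher, 170 to 2222 lower), calls with the trend removed 284 to 1552 (155 to 825 higher, 129 to 727 lower), and calls in both fits 158 to 919. The low ends are without control replicate 1, which leaves 1 control, assumed to vary like the other groups. Raw calls lower numbered 1119 without control replicate 2 and 1132 and 1295 without anti-miR-409-5p replicates 3 and 4. With the trend removed, 790 genes were called without control replicate 2 (417 higher, 373 lower), and in both fits 461. With 1 surrogate variable 936 genes were called on raw counts (820 higher, 116 lower) and 418 in both fits. Scaling by total counts gave 3209 lower on raw counts. Correcting for length alone, which leaves the trend on GC content in place, gave 4685 calls (2199 higher, 2486 lower) and, with the raw fit unchanged, 3552 in both, an alternative added after seeing the data. The differences between groups in GC slope (-0.293 to -0.231), length slope (0.0202 to 0.0325) and mitochondrial share (0.852 to 1.04 points) kept their direction in the omissions.

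The replicate block gave 4886 raw calls against control, 1294 with the trend removed and 802 in both; control and anti-miR-409-5p share only a number there, with correlations of 0.293 and 0.0423. Against anti-miR-501-3p the block gave 252 calls and DESeq2 3, where 0 were called without the block and 0 to 0 in the omissions.

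Over the named genes and alternatives on raw counts, 0 results reversed, 3820 kept side and direction, 265 lost the call and 11 gained it. With the trend removed, 4767 kept both, 258 lost and 128 gained the call and 29 reversed, all where length alone or the median over transcripts replaced the main correction; the cause was not tested. With length alone the log2 fold changes were 0.26 for Snap25, 0.31 for Calb1, 0.17 for Aqp4, 0.18 for Grik2, 0.32 for Homer1, -0.11 for Sncb, -0.23 for Vgf, 0.22 for Kif2a, 0.25 for Nlgn1, 0.14 for Rian, -0.23 for Begain, 0.33 for Lamp2, -0.18 for Rps15, 0.29 for Psmc6, 0.32 for Phf14, 0.097 for Rbbp6, 0.12 for Nktr, 0.25 for Fnbp1l and -0.033 for Ube2m. With the median over transcripts they were -0.0050 for mt-Rnr1, -0.038 for Rtn4, 0.10 for Snap25, 0.23 for Aqp4, 0.18 for Homer1, 0.056 for Rian, 0.20 for Phf14, 0.047 for Rbbp6, 0.14 for Nktr and 0.037 for Fnbp1l.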
